A study of Homo sapiens with 9 samples.

Results

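The transcripts described here are those of 10 genes out of 58735 in the deposited table: the Fos family (FOS, FOSB, FOSL1, FOSL2), the Jun family (JUN, JUNB, JUND) and the immediate early genes EGR1, ATF3 and IER2. They were taken by gene symbol, and the choice of symbols was made with earlier results of these data known. RNA sequencing measured them in the established human line MDA-MB-231, derived from a breast cancer, mesenchymal and without oestrogen receptor, in 9 libraries all labelled wild type, from cells maintained in serum-supplemented DMEM. Cells received plain medium (No CM), medium that non-senescent cells of the line had conditioned (Cont CM), or medium from cells of the line driven into senescence by 100 ng/ml nocodazole for 72 h (TIS CM, from therapy-induced senescence), with 3 libraries in each group. Nocodazole is a drug that depolymerizes microtubules. The sample labels give 72 h in these media and the series design text gives 48 h. No group received medium conditioned by any other cell type, and the labels do not say whether replicates were separate cultures, so every p-value measures the spread between libraries, which may be technical.

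Fos and Jun proteins are basic leucine zipper transcription factors that pair to form AP-1, a complex that binds DNA at a short palindromic site. Jun proteins can pair with each other, whereas Fos proteins need a partner such as a Jun protein. Immediate early genes such as FOS and EGR1 are transcribed within minutes of serum or growth factor addition, mainly through kinase signalling to SRF with its ternary complex factors and to CREB, and their messenger RNAs are short-lived. FOSL1, which encodes the Fos family protein Fra-1, is by contrast expressed steadily in many mesenchymal breast cancer cells and depends on ERK signalling and on AP-1 itself.

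RefSeq promoter sequences (GRCh38.p14) were found for 9 of the 10 genes, ATF3 having 2, so 10 promoters were read over the 250 bases upstream of the start. FOSL1 was not used here. The 140 bases nearest the start are shown for FOS, FOSB and JUNB, which share an arrangement of motifs, for EGR1, whose promoter differs from it, and for JUN and the first promoter of ATF3, which share an element. Capitals mark every match to the motifs searched on both strands. The motifs were TGACG, the core of the cAMP response element, which reads CGTCA on the other strand, the full palindrome TGACGTCA, which holds that core on both strands, TGACATCA, chosen after the JUN promoter had been read, the AP-1 site TGAGTCA, the CArG box bound by SRF, and TATAAA. The EGR site GCGNGGGCG was also searched and is not capitalized.
FOS (chr14:75278688-75278827, plus strand): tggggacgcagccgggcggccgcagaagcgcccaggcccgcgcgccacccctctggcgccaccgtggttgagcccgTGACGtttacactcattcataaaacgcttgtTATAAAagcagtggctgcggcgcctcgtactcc
FOSB (chr19:45467856-45467995, plus strand): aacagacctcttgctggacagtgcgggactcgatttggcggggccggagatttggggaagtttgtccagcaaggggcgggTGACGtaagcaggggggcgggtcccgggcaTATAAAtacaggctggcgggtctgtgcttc
JUNB (chr19:12791346-12791485, plus strand): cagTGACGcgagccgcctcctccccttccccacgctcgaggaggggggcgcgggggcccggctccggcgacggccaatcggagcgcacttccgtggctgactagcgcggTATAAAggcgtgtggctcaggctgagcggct
EGR1 (chr5:138465339-138465478, plus strand): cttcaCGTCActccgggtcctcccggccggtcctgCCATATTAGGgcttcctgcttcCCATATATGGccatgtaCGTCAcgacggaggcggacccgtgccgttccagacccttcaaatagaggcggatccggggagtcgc
JUN (chr1:58784048-58784187, minus strand): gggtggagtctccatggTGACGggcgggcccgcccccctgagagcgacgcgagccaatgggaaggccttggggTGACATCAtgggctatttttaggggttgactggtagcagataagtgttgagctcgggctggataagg
ATF3 (chr1:212565267-212565406, plus strand): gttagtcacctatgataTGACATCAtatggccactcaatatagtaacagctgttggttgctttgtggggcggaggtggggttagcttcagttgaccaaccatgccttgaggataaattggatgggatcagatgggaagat

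TGACG occurred in 8 of the 10 promoters, all but the 2 read for ATF3, against 21.2% of 35116 promoters of the same length. GC content ran from 62% to 74.8% in these 8 and was 49.2% and 44.8% in those of ATF3, against a median of 58% over all promoters. The shares were not matched for GC content. In FOS and FOSB, TGACG lay at positions -64 and -60 from the start, upstream of TATAAA at -33 and -30. In JUNB it lay at -137 with TATAAA at -31. TATAAA occurred in 10.7% of all promoters, and in 4 of these 10, the other being the second ATF3 promoter, where it lay at -230. EGR1 carried 2 CArG boxes, at -105 and -83, a motif present in 1.16% of all promoters, with TGACG on the minus strand at -135 and -66. It also held the only match to GCGNGGGCG among them (8.41% of all promoters). TGACATCA lay at -67 in JUN and at -123 in the first ATF3 promoter and was present in 2.38% of all promoters. JUND alone held TGACGTCA, found in 1.65%, and TGAGTCA was in none of the 10 and in 4.2% of all promoters. A match describes these letters only. The second ATF3 stretch lies inside the deposited span of that gene, and which starts these cells use was not tested. The lack of TGACG for ATF3 holds for the 2 stretches read and not for other starts of the gene. Sequence farther than 250 bases upstream was not searched. The lack of a CArG box in the stretch read for FOS therefore says nothing about sites beyond it.

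Of the 10 genes, 9 had a mean of at least 0.5 FPKM (fragments scaled by gene length and library size) and entered the test; FOSB did not. FPKM is per length, so comparing levels between genes rests on the deposited gene lengths, such as 1887 bases for FOSL1 and 3238 for FOS. The transcripts expressed may differ from these in length. FOSL1 was the most abundant in every group, at 186 ± 10.2 FPKM in No CM, 247.1 ± 16.7 in Cont CM and, for TIS CM, 233.7 ± 4.38 (mean ± SD of 3 libraries, here and below). JUND, JUN, FOSL2, IER2, JUNB and EGR1 followed in that order in each group, and FOSB was the lowest throughout. FOS ranked above ATF3 in No CM and TIS CM and below it in Cont CM. The library ranges of neighbours in the order overlapped only for IER2 with JUNB and EGR1 with FOS in No CM, and for FOSL2 with IER2 in TIS CM.

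**Figure D1:**
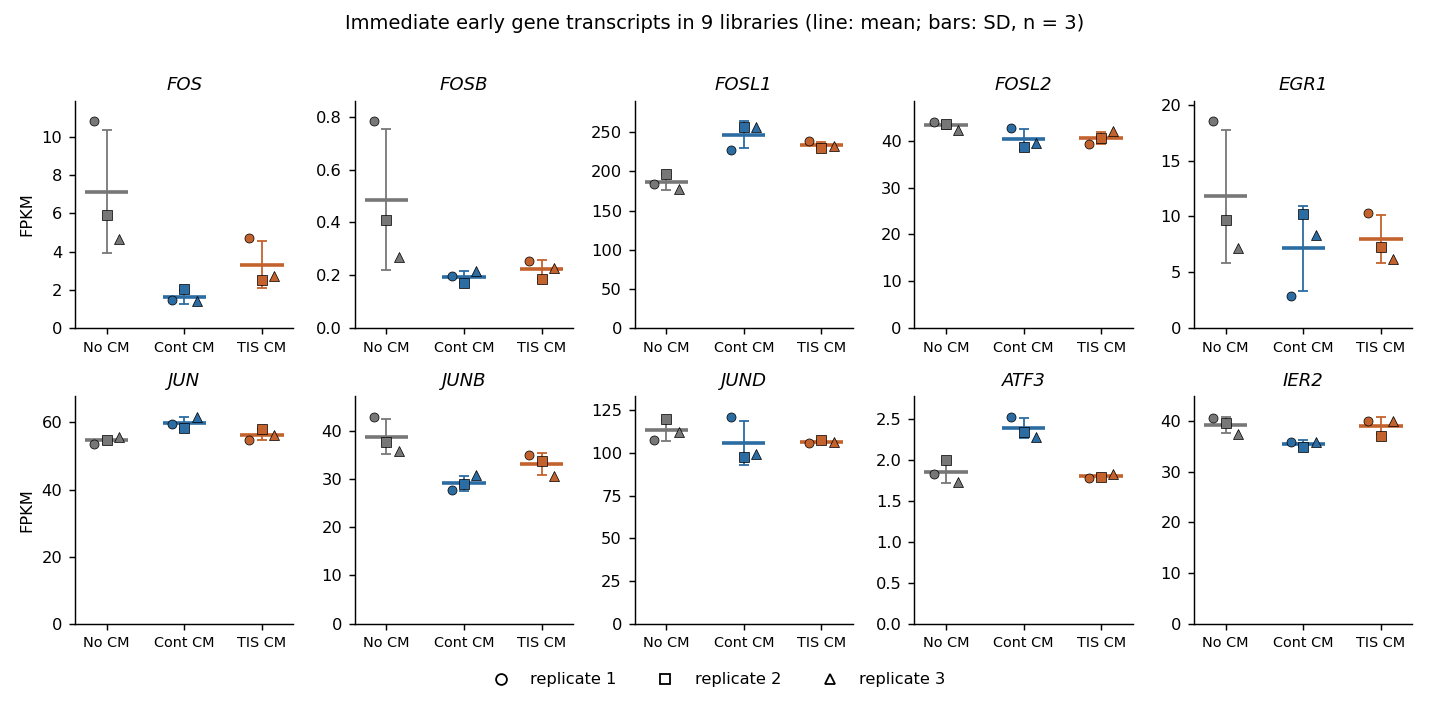
FPKM of each of the 10 genes in the 9 libraries, on linear axes that start at 0; the marker shape gives the replicate number, the line the group mean and the bars the SD (n = 3). All 3 Cont CM libraries lie below all 3 No CM libraries for FOS and JUNB, and above them for FOSL1, JUN and ATF3.

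Cont CM against No CM asks what medium from non-senescent cells of the same line does to these transcripts, and it held most of the differences. FOS and JUNB fell, while FOSL1, ATF3 and JUN rose. Limma thus called 5 of the 9 tested genes, 3 higher and 2 lower, beside 16.3% of the 13912 genes tested, of which 7.77% were higher and 8.56% lower. The median log2 fold change of the 9 was -0.10 against 0.00 over all genes tested, or -0.01 with the trend of each library in GC content and gene length removed, and the median absolute change was 0.29 against 0.11. All fold changes are on the scale log2(FPKM + 0.5), which understates changes of low genes such as FOS and ATF3.

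FOS (chromosome 14, 75278774 to 75282230, plus strand, 4 exons), the prototype Fos gene, stood at 10.8, 5.93 and 4.68 FPKM in the No CM libraries, 1.45, 2.05 and 1.42 in Cont CM and 4.71, 2.49 and 2.73 in TIS CM, in the order of replicates 1 to 3. Every Cont CM library lay below every No CM and every TIS CM library, and No CM and TIS CM met at their lower and upper ends. The means were 7.14 ± 3.24, 1.64 ± 0.356 and 3.31 ± 1.22 FPKM. FOS fell 3.4-fold in Cont CM (-1.77 on the log2 scale, SE 0.29, limma adjusted p = 0.00504). It passed in all 20 alternative settings, with log2 fold changes between -2.06 and -1.44. In TIS CM it was 0.80 higher than in Cont CM on the log2 scale (95% interval 0.13 to 1.46, limma adjusted p = 0.146) and 0.97 lower than in No CM (interval -1.63 to -0.30, limma adjusted p = 0.193), neither of which passed. Between 155 and 1264 fragments per library lay behind these values.

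FOSB (chromosome 19, 45467995 to 45475179, plus strand, 4 exons), a close relative of FOS that shares the TGACG and TATAAA matches, was scarcely detected. It stood at 0.782, 0.41 and 0.268 FPKM in No CM, 0.197, 0.171 and 0.216 in Cont CM, and 0.254, 0.184 and 0.228 in TIS CM, from between 34 and 157 fragments. The No CM libraries lay above all others. Without the filter on low values its log2 fold change in Cont CM against No CM was -0.47 (limma adjusted p = 0.176). It overlaps ERCC1 on the other strand, at 16.3 FPKM, and the strand setting of the counting is not given in the labels or notes.

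FOSL1 (chromosome 11, 65892049 to 65900573, minus strand, 4 exons) stood at 183.5, 197.2 and 177.2 FPKM in No CM, 227.8, 257.1 and 256.3 in Cont CM, and 238.5, 230 and 232.5 in TIS CM. Both conditioned media lay above all No CM libraries and overlapped each other. FOSL1 rose 1.33-fold in Cont CM, by 0.41 on the log2 scale (SE 0.06, limma adjusted p = 0.00259, past the threshold in all 20 alternatives). It was also the 1 tested gene of the 9 that rose in TIS CM against No CM, 1.26-fold (0.33, SE 0.06, limma adjusted p = 0.0429). That call held in 10 of 20 alternatives and was lost without any single No CM or TIS CM library or without Cont CM replicate 3, with adjusted p up to 0.176. Between TIS CM and Cont CM the log2 difference was -0.08 (interval -0.21 to 0.05). Between 11479 and 18968 fragments per library lay behind these values.

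FOSL2 (chromosome 2, 28392448 to 28417312, plus strand), which encodes Fra-2, was nearly level, between 38.6 and 43.9 FPKM in the 9 libraries. Its log2 fold changes were -0.10 in Cont CM and -0.09 in TIS CM against No CM, and 0.01 between the conditioned media (interval -0.09 to 0.11), none past the threshold. Without Cont CM replicate 1 it passed in Cont CM against No CM (log2 fold change -0.15, limma adjusted p = 0.0261).

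The make-up of Fos family transcripts differed between media. FOSL1 held 78.5% ± 1.54 of summed Fos family FPKM in No CM, 85.4% ± 1.48 in Cont CM and, for TIS CM, 84.1% ± 0.273. The share of FOS was 3% ± 1.33, 0.566% ± 0.11 and 1.19% ± 0.417. The ratio of FOSL1 FPKM to FOS FPKM was 29.4 ± 11 in No CM, against 154.4 ± 27.8 in Cont CM and 76.1 ± 22.4 in TIS CM, with no overlap between any 2 groups. These shares were compared without a test, and they restate the FOS and FOSL1 values within each library, so that library scaling does not enter. The summed Fos family stood at 236.9 ± 11.5, 289.2 ± 14.7 and 277.8 ± 4.86 FPKM, and the summed Jun family at 206.7 ± 4.65, 194.9 ± 12.1 and 196 ± 2.87.

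**Figure D2:**
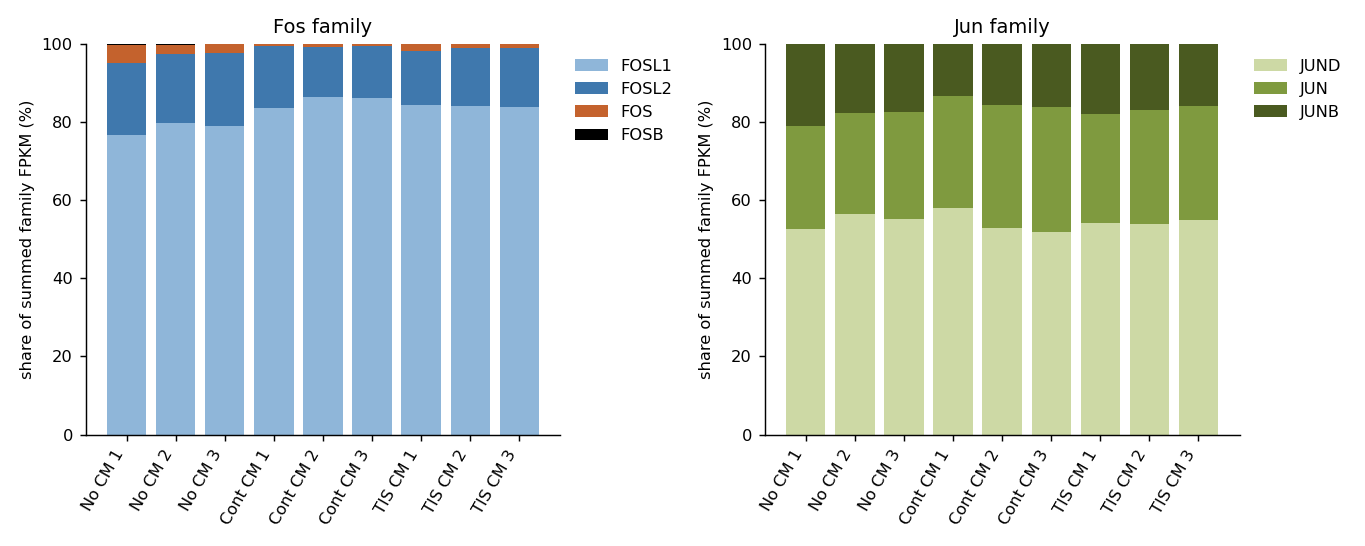
Share of each gene in the summed FPKM of the Fos family (left) and the Jun family (right), in percent, 1 bar per library. FOSL1 makes up 76.8% to 79.8% of the Fos family in No CM and 83.7% to 86.3% in Cont CM, and FOSB is barely visible.

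JUN (chromosome 1, 58780788 to 58784327, minus strand, a single exon), the prototype partner of FOS, was at 53.7, 54.7 and 55.8 FPKM in No CM, 59.6, 58.2 and 61.6 in Cont CM, and 54.7, 58 and 56.3 in TIS CM. Cont CM lay above both other groups in every library. The rise over No CM was small, 1.09-fold (0.13 on the log2 scale, SE 0.04, limma adjusted p = 0.0475), and passed in 8 of 20 alternatives, with adjusted p between 0.00473 and 0.134. Leaving out any library other than Cont CM replicate 2 ended the call. TIS CM was -0.08 from Cont CM on the log2 scale (interval -0.17 to -0.00, limma adjusted p = 0.205).

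JUNB (chromosome 19, 12791496 to 12793315, plus strand, a single exon), a Jun protein that can restrain JUN, followed the course of FOS. It stood at 42.8, 37.7 and 35.7 FPKM in No CM, 27.7, 28.9 and 30.8 in Cont CM, and 35, 33.7 and 30.6 in TIS CM. Cont CM was below No CM in every library, and TIS CM lay between, overlapping Cont CM in 1 library. JUNB fell 1.32-fold in Cont CM (-0.40 on the log2 scale, SE 0.07, limma adjusted p = 0.00788). The call held in 19 of 20 alternatives and was lost when the dependence of each library on GC content and gene length was removed (-0.29, limma adjusted p = 0.0913). TIS CM was 0.18 above Cont CM (interval 0.01 to 0.35, limma adjusted p = 0.183, and 0.05 with that trend removed) and -0.22 from No CM (interval -0.39 to -0.05, limma adjusted p = 0.225). JUNB overlaps HOOK2 on the other strand, at 2.25 FPKM.

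JUND (chromosome 19, 18279760 to 18281622, minus strand, a single exon), the steadily expressed Jun gene, ranged from 97.7 to 121 FPKM, and both ends of that range were Cont CM libraries, replicates 2 and 1. No comparison passed, with log2 fold changes of -0.10 (interval -0.27 to 0.07) in Cont CM and -0.09 (interval -0.26 to 0.09) in TIS CM against No CM. Without Cont CM replicate 1 it fell in Cont CM against No CM (-0.20, limma adjusted p = 0.0176). With the GC and length trend removed the sign turned, to 0.03. JUND held between 51.8% and 58.1% of summed Jun family FPKM in every library, while the share of JUNB was 18.7% ± 1.93 in No CM, against 15% ± 1.47 in Cont CM and 16.9% ± 1.04 in TIS CM.

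EGR1 (chromosome 5, 138465490 to 138469315, plus strand, 2 exons), a zinc finger factor and classical SRF target, had the largest SE of the 9 tested genes, 0.45 on the log2 scale. It stood at 18.5, 9.69 and 7.13 FPKM in No CM, 2.89, 10.2 and 8.35 in Cont CM, and 10.3, 7.29 and 6.22 in TIS CM. All 3 groups overlapped, and Cont CM replicate 1 was the lowest of the 9 libraries. The log2 fold change in Cont CM against No CM was -0.74 (interval -1.75 to 0.27, limma adjusted p = 0.304), and between -1.06 and -0.23 with 1 library left out, the smallest without Cont CM replicate 1. That interval spans 0 and negative differences of more than 1 log2 unit alike. EGR1, FOS and FOSB were each highest in replicate 1 within No CM and within TIS CM.

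ATF3 (chromosome 1, 212565334 to 212620777, plus strand), a stress-induced leucine zipper factor that pairs with Jun proteins, was the 1 tested gene of the 9 called between the conditioned media. It stood at 1.83, 2 and 1.73 FPKM in No CM, 2.52, 2.34 and 2.28 in Cont CM, and 1.78, 1.79 and 1.83 in TIS CM. Every Cont CM library was above every other library, and No CM and TIS CM overlapped. ATF3 rose 1.23-fold in Cont CM over No CM (0.29 on the log2 scale, SE 0.07, limma adjusted p = 0.0187) and fell 1.25-fold in TIS CM against Cont CM (-0.32, SE 0.07, limma adjusted p = 0.0331). The first call held in 17 of 20 alternatives and was lost without No CM replicate 1 or 3. The second held in 11 and was lost without No CM replicate 1, Cont CM replicate 2 or 3, or any TIS CM library, with adjusted p up to 0.117. Between TIS CM and No CM the log2 difference was -0.03 (interval -0.18 to 0.12).

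IER2 (chromosome 19, 13150415 to 13154908, plus strand, a single exon), a serum-induced nuclear protein, was at 40.5, 39.6 and 37.5 FPKM in No CM, 35.9, 34.8 and 35.9 in Cont CM, and 40, 37.1 and 40 in TIS CM. Cont CM lay below both other groups in every library. The differences did not pass, at -0.14 for Cont CM against No CM (limma adjusted p = 0.0603) and 0.13 for TIS CM against Cont CM (limma adjusted p = 0.11). With protein-coding genes alone or with equal library sums the first did pass (limma adjusted p = 0.0463 and 0.0417). With the GC and length trend removed, the first shrank to -0.01 (limma adjusted p = 0.881) and the second to 0.0025 (limma adjusted p = 0.983). An antisense gene, AC011446.2, overlaps IER2 and was at 15.5 FPKM.

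TIS CM against Cont CM compares media from senescent and non-senescent cells. It held 1 call among the 9 tested genes, ATF3, lower, beside 4.48% of all genes tested, 2.9% higher and 1.57% lower. Voom on recovered fragments also called 1. At an unadjusted p under 0.05, limma gave 5 of the 9, beside 23.4% of all genes tested. Their median log2 fold change was 0.01, against 0.00 for all genes tested. TIS CM against No CM called 1 of 9, FOSL1, beside 0.855% of all genes tested, 0.403% higher and 0.453% lower, and 3 had an unadjusted p under 0.05, beside 13.6% of all genes. The median was -0.09, against 0.00 over all genes. The mean in TIS CM lay between those in No CM and Cont CM for 9 of the 10 genes, all but ATF3, and for 48.2% of all genes tested. FOSB is among the 9 but was not tested. Some gaps were well inside the spread. JUND had 106.5 FPKM in TIS CM against 106 ± 13 in Cont CM, and IER2 39.1 in TIS CM against 39.2 ± 1.58 in No CM. The 3 comparisons share groups, so they are not independent of each other.

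**Figure D3:**
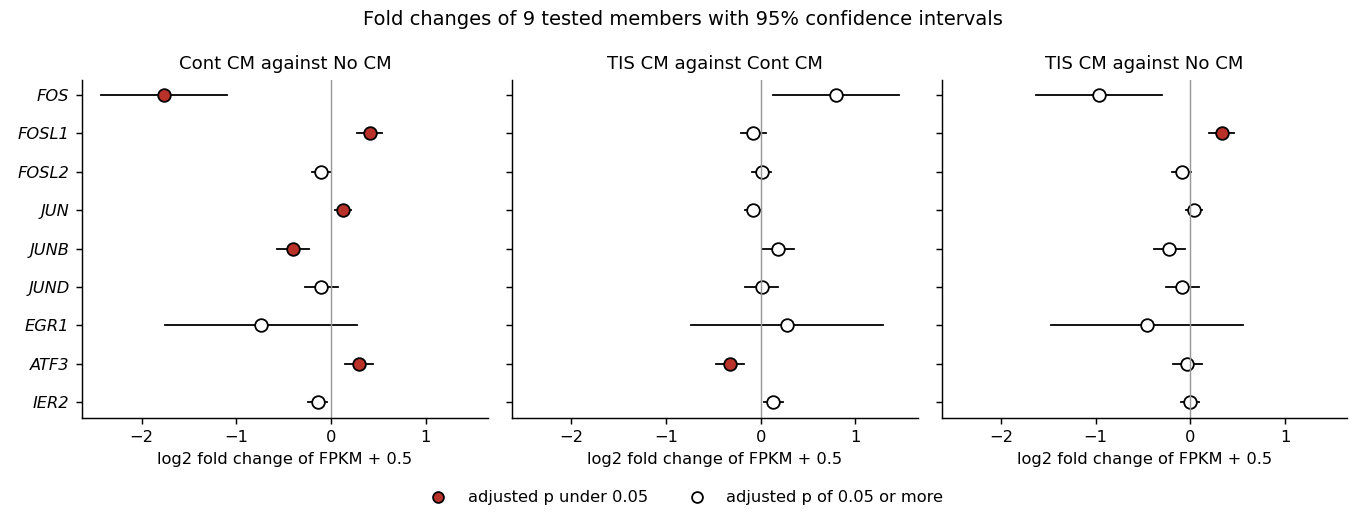
Log2 fold changes on the FPKM + 0.5 scale with 95% confidence intervals for the 9 tested genes in the 3 comparisons; filled points have a limma adjusted p under 0.05. FOS (-1.77) lies farthest from 0 in Cont CM against No CM, the interval of EGR1 is the widest in each panel, and 1 point is filled in each panel with TIS CM.

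Among 27 tested immediate early genes outside the 10, 10 rose and 4 fell in Cont CM against No CM. Over all genes tested, 7.77% rose and 8.56% fell in this comparison. In TIS CM against Cont CM 2.9% rose and 1.57% fell, and in TIS CM against No CM 0.403% and 0.453%. An unadjusted p under 0.05 was reached by 23.4% and 13.6% of genes in these 2 comparisons. By voom, 1085 of the 13912 genes tested were called in TIS CM against Cont CM and 245 in TIS CM against No CM. The counts of every list below stand beside the shares of the same comparison. The 4 with the largest rise were DUSP1, a phosphatase of MAP kinases (1.98-fold), IER3 (1.58-fold), the matricellular gene CYR61 (1.4-fold) and PPP1R15A, a phosphatase subunit of the stress response (1.37-fold). The 4 that fell were ID1, an inhibitor of basic helix-loop-helix factors (1.97-fold), IER5L (1.62-fold), KLF2 (1.39-fold) and PLK2 (1.17-fold). So both directions occurred among genes classed together, as among the 10. Replicate 1 of Cont CM held 58.5 FPKM of DUSP1, with 33.5 and 34.3 in replicates 2 and 3, and 1351.2 FPKM of IER3, with 893.1 and 948.5 there, whereas EGR1 was lowest in that library. Without Cont CM replicate 1 DUSP1 and IER3 still passed, and over all single omissions the log2 fold change of DUSP1 lay between 0.72 and 1.12. IER3 was not called without No CM replicate 3 (limma adjusted p = 0.051), and PLK2 was not called without any single No CM library or without Cont CM replicate 2 or 3. IER5L (1.43-fold), ID1 (1.4-fold) and KLF2 (1.21-fold) rose in TIS CM against Cont CM, and none of the 27 fell by limma. At an unadjusted p under 0.05 limma gave 12 in either direction, these 3 included, beside 23.4% of all genes tested. By voom 3 rose and 4 fell. Of the 27, 2 fell with protein-coding genes alone or with a minimum mean of 2 FPKM, and 1 with equal library sums. With the GC and length trend removed, KLF2 stood at 0.13 on the log2 scale (limma adjusted p = 0.362) and IER5L at 0.37 (limma adjusted p = 0.065), so that ID1 was the 1 call left, as it was with the replicate block. PPP1R15A rose 1.27-fold and ID1 fell 1.41-fold in TIS CM against No CM. The TIS CM calls of this list numbered between 0 and 4 higher in either comparison when single libraries were left out.

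The other leucine zipper genes and the upstream signalling genes were mostly not called, as was so for most of all genes tested. Of 17 AP-1 related and Maf family genes, 1 rose and 1 fell in Cont CM against No CM: ATF4, a stress-response factor, rose 1.12-fold, and JDP2, a repressor that pairs with JUN, fell 1.24-fold. JDP2 stood at 2.45, 2.34 and 2.14 FPKM in No CM, 1.72, 1.75 and 1.82 in Cont CM, and 2.63, 2.56 and 2.23 in TIS CM, and it rose 1.31-fold in TIS CM against Cont CM (limma adjusted p = 0.0261), the reverse of ATF3. The ATF4 call held in 10 of 20 alternatives, and those of JDP2 in 15 and 13. Against No CM, TIS CM gave 0 calls of 17 by limma and 0 by voom, and limma put 2 below an unadjusted p of 0.05. Of 24 kinases and SRF, ternary complex and CREB factors, 4 rose and none fell in Cont CM against No CM. The shares of calls in both lists are near the 16.3% over all genes tested and are no result about these genes. The 4 that rose were the ternary complex factors ELK3 (1.32-fold) and ELK4 (1.19-fold), the kinase gene MAP2K1 (1.16-fold) and CREB1 (1.11-fold). CREB1 fell 1.12-fold in TIS CM against Cont CM, the 1 call among the 24 there, beside 4.48% of all genes tested. Against No CM, TIS CM gave 0 calls of 24 by limma and 1 by voom, and limma put 2 below an unadjusted p of 0.05. Of these, ELK3 passed in 20 of 20 alternatives, MAP2K1 in 16, ELK4 in 11 and CREB1 in 9 and 8. With the GC and length trend removed, CREB1 stood at 0.08 and -0.09 on the log2 scale and was not called.

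Of 14 genes listed for feedback in the ERK pathway, 3 rose and 1 fell in Cont CM against No CM. IL11 (1.52-fold), SPRED3 (1.33-fold) and DUSP5, an ERK phosphatase (1.29-fold), rose, and SPRY1, a Sprouty inhibitor, fell 1.54-fold. IL11 is a cytokine gene and not itself a feedback regulator of the pathway. The SPRED3 call held in 13 of 20 alternatives and was lost with the replicate block and without No CM replicate 1 or 3 or Cont CM replicate 1 or 2. DUSP5 fell 1.15-fold in TIS CM against Cont CM, a call that held in 8 of 20 alternatives. Against No CM, TIS CM gave 0 calls of 14 by limma and 2 by voom, and limma put 4 below an unadjusted p of 0.05. A list drawn up for mRNA decay held 13 tested genes, some encoding proteins that bind the AU-rich elements of immediate early mRNAs. Of these 13, 2 rose in Cont CM against No CM, ZFP36L1 (1.32-fold) and TNPO1 (1.15-fold), and ZFP36L2 fell 1.38-fold. TNPO1 encodes a nuclear import receptor and is not itself a decay factor. TNPO1 was not called with the GC and length trend removed (limma adjusted p = 0.0677). Limma called 0 of these 13 in both comparisons with TIS CM, with 4 against Cont CM and 2 against No CM at an unadjusted p under 0.05, and voom called 1 in each.

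Genes known as AP-1 targets rose in Cont CM against No CM in 7 of 25 cases and fell in none. Among the raised genes were the cytokine gene IL6 (1.78-fold) and the collagenase gene MMP1 (1.77-fold). Of the 25, 2 fell and none rose in TIS CM against Cont CM. In TIS CM against No CM 3 rose and none fell, among them PLAU, which encodes the protease urokinase (1.25-fold). The list's median log2 fold change was 0.06, 0.04 and 0.14 in Cont CM against No CM, TIS CM against Cont CM and TIS CM against No CM, against 0.00 over all genes each time. With single libraries left out the medians ran from 0.03 to 0.15, from -0.0004 to 0.09, and from 0.12 to 0.15. Without any 1 No CM library, 5 rose in Cont CM against No CM. Without Cont CM replicate 1, 11 rose and 1 fell in Cont CM against No CM, and 4 fell in TIS CM against Cont CM. Without any 1 TIS CM library, 1 fell in that comparison. The rises in TIS CM against No CM numbered 9 without Cont CM replicate 1, 2 without Cont CM replicate 3, and 0 without No CM replicate 1 or 3, without any 1 TIS CM library, or with the replicate block. Replicate 1 of Cont CM held 98.5 FPKM of IL6, with 52.3 and 53.6 in replicates 2 and 3, and 343.2 FPKM of MMP1, with 698.4 and 552.8 there. The IL6 call held in 15 of 20 alternatives, the MMP1 call in 12 and the PLAU call in 12.

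**Figure D4:**
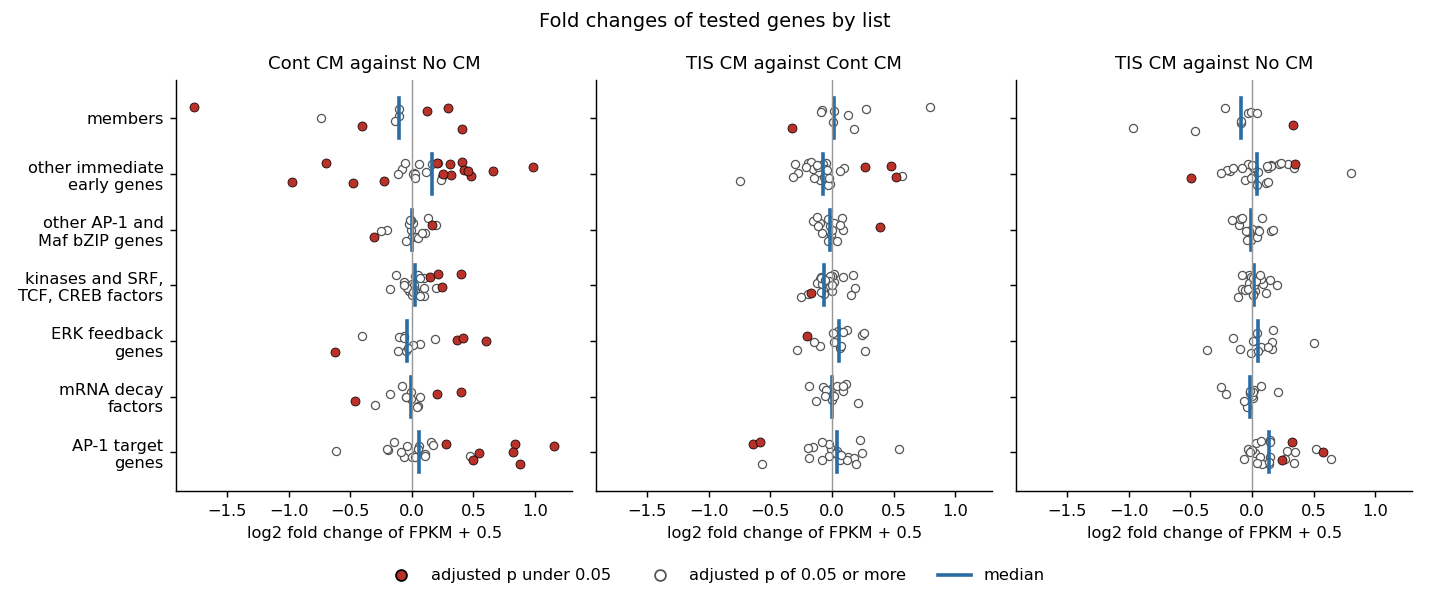
Log2 fold changes on the FPKM + 0.5 scale for the tested genes of each list in the 3 comparisons; each point is a gene, filled where the limma adjusted p was under 0.05, and the blue line is the list's median. In Cont CM against No CM filled points stand on both sides of 0 among the 9 tested genes (3 higher, 2 lower) and among the other immediate early genes (10 higher, 4 lower), and on the higher side alone among AP-1 targets.

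The genes with the course most like that of FOS, ATF3 and EGR1 were found by Pearson's r of log2(FPKM + 0.5) over the 9 libraries, which fall into 3 groups and share their group differences and depth. Nearest to FOS were CTNNB1 (r = 0.964), DNAJB12 (0.956), KLHL4 (0.956), NBN (0.954) and ANXA11 (0.95). CTNNB1 had means of 32.1, 29.4 and 30.8 FPKM in No CM, Cont CM and TIS CM, and ANXA11 of 30.7, 24.6 and 27.4. A high r therefore does not mean a change of like size. Near to ATF3 were VEZT (r = 0.972), BMP2K (0.971), PRKAA1 (0.97) and MYO6 (0.968), the last with means of 10.7, 13.1 and 10.9 FPKM. Nearest to EGR1 were PPP2R5C (r = 0.974), FNIP1 (0.949), FBXO5 (0.948), SMC4 (0.947) and THAP5 (0.944), the first with means of 9.03, 8.44 and 8.65 FPKM. Within the 9 tested genes, FOS lay closest to JUNB (r = 0.945) and farthest from JUN (r = -0.93). These coefficients are descriptions without a test, picked as the highest of many.

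The libraries held from 32636708 to 39189036 fragments on genes. Markers of the line were present, with VIM between 345.4 and 401.4 FPKM and AXL between 195.3 and 218.2, and ESR1 and PGR were at 0.00801 FPKM or less. ERBB2 (7.92 to 9.59 FPKM) and EPCAM (7.58 to 10.1) had been fixed as low markers of this line but were detected. CDH1, the other low marker, had means of 1.17 ± 0.0575 FPKM in No CM, against 0.299 ± 0.0877 in Cont CM and 0.438 ± 0.0642 in TIS CM, so its highest group was No CM, as for FOS. Of the markers of other cells, PTPRC, CD3E, CDH5, VWF and PDGFRA stayed at or below 0.0604 FPKM and DCN at 0, and 3 were detected. CD14 had means of 4.75, 3.38 and 4.47 FPKM in No CM, Cont CM and TIS CM, PDGFRB of 1.43, 0.989 and 1.44, and PECAM1 of 0.52, 0.387 and 0.44. These 3 had their lowest mean in Cont CM, as FOS and JUNB did, with CD14 and PDGFRB below both other groups in each Cont CM library, and the part of such cells or genes in the results was not tested. GC content and gene length accounted for 18.5% of the variance around gene means in Cont CM replicate 2, and for 0.65% to 6% in the other 8 libraries. Over genes, log2 fold changes correlated with GC content at r = -0.26 in Cont CM against No CM, 0.34 in TIS CM against Cont CM and 0 in TIS CM against No CM. Removing that trend ended the calls of JUNB in Cont CM against No CM and of FOSL1 in TIS CM against No CM, among the 9 tested genes. In these bulk libraries, fewer cells expressing a gene and less RNA per cell cannot be told apart.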

How the data were processed

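Polyadenylated RNA of 9 MDA-MB-231 libraries was sequenced after random priming, per the labels' protocols. Per the submitters' processing notes, the build was hg38 and the tools were HISAT2 2.0.5 and featureCounts 1.5.0-p3, with fastp and DESeq2 1.20.0, roles and strand of counting not given in the sources used here. The authors deposited FPKM for 58735 genes, whose identifiers matched GENCODE 29 in 99.8995% of cases. Multiplied by gene length, 100% of values in each library came within 0.01 of whole multiples of 1 step, so fragments were recovered. The implied library sizes matched median-of-ratios factors to within 0.333%. That scaling takes most genes as unchanged, and reads of overlapping genes may be split between them.

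Genes with a mean of at least 0.5 FPKM (13912, of them 11276 protein coding) were tested on log2(FPKM + 0.5) with limma 3.58.1 in R 4.3.3, using group means over all 9 libraries, an intensity trend and moderated variances, two-sided, with Benjamini-Hochberg adjustment over all tested genes per comparison and a threshold of 0.05. The fit was also run on simulated data with the same dispersion for every gene and no trend in GC content or gene length. Such data cannot show how well its error rates hold in these libraries. Intervals are 95%. Besides the 10 genes, 6 lists from general knowledge were counted, naming at most 4 called genes per direction and comparison, and the 5 most similar protein-coding genes were named for FOS, ATF3 and EGR1. Some genes that these rules name are not reported here. The genes and lists were chosen with earlier results of these data known. Promoters come from RefSeq. Figures used matplotlib 3.10.9.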

Additional observations from a re-analysis of the deposited data

How the results depend on the processing

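Over the 20 alternatives, 486 of 540 log2 fold changes of the 9 tested genes kept direction and side of the threshold, 35 lost a call, 4 gained one and 15 changed sign, all of the last for differences that had not passed. Most of the 540 were for differences not called at first, which could not lose a call. Calls in Cont CM against No CM were lost in 12 of 20 settings for JUN, 3 for ATF3 and 1 for JUNB. In TIS CM against Cont CM 9 were lost for ATF3, and in TIS CM against No CM 10 for FOSL1. FOS and FOSL1 in Cont CM against No CM passed in each of the 20. Of the 10 genes, the number called in Cont CM against No CM was 5, and 3 when only the 6 libraries compared were fitted, with a range of 3 to 6 when single libraries were left out. It was 1 in TIS CM against Cont CM, and 0 with no filter on low values or with only the groups compared, with a range of 0 to 1 without single libraries. It was 1 in TIS CM against No CM, and 0 with no filter or with the GC and length trend removed, again with a range of 0 to 1.

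With the replicate number as a block (replicate block), 0 of the genes were called in TIS CM against Cont CM and 0 in TIS CM against No CM. Over all genes tested, same-numbered libraries did not deviate together, with r between -0.187 and 0.0838, so the numbers were not taken as a pairing. Such an r can miss a shared deviation of a few genes. EGR1, FOS and FOSB were highest in replicate 1 of No CM and of TIS CM, and a pairing for these genes was not tested.

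Sign changes were as follows. In TIS CM against Cont CM, FOSL2 was -0.0128 with quantile normalization and -0.00758 with the GC and length trend removed, and -0.0175 to 0.0563 with single libraries left out. JUND was -0.054 and -0.152 under the same pair of settings, and -0.0413 to 0.112 with single libraries left out. EGR1 ranged from -0.229, without Cont CM replicate 1, to 0.597. In Cont CM against No CM, JUND was 0.0284 with the GC and length trend removed. In TIS CM against No CM, ATF3 ranged from -0.0688 to 0.013 and IER2 from -0.0373 to 0.0306 without single libraries.

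Counts over all genes moved more. The 623 calls in TIS CM against Cont CM became 207 with no filter, 995 with protein-coding genes, 33 with only the groups compared, 126 with the block, 128 with the GC and length trend removed, 1085 with voom and 11 to 1084 without single libraries. The share of higher calls there was 64.8%, 53.2% with quantile normalization and 53.9% with the trend removed. The 2272 calls in Cont CM against No CM became 1242 with only the groups compared, 1461 with the block, and 1075 to 2770 without single libraries. The 119 in TIS CM against No CM became 46 with no filter, 210 with protein-coding genes, 331 with only the groups compared, 4 with the block, 245 with voom and 9 to 365 without single libraries. Voom was chosen after seeing the data. The planned count-model fits of recovered fragments were not run, since the deposited unit is not counts. Causes of these shifts were not tested. Depth limits FOSB most, at 34 to 157 fragments.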
